A study of Mus musculus with 2 samples.

Results

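Prox1, Maf, Mafg, Mafk, Sox1, Pitx3, Gata3 and Zeb2 are transcription factors with a known role in the differentiation of lens fiber cells. They were taken as a group by their gene symbols: every probe whose platform annotation names 1 of these 8 genes was used, which gave 14 of the 45281 probes and 8 of the 19057 named genes. Expression was compared between 2 samples of wild-type mouse lens at embryonic stage E12.5, 1 array of lens epithelium and 1 array of lens fibers. The sources used here do not give the strain, the sex, the number of embryos or the way in which the tissues were separated. With 1 array per tissue there was no replicate, no test was possible, and each difference below describes these arrays. The labelled tissue is a bulk sample, so fewer cells of a type and less RNA per cell cannot be told apart.

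In the embryonic lens, epithelial cells at the front keep dividing, while cells at the back leave the cell cycle, elongate and fill with crystallins, the soluble proteins that make the lens transparent. Prox1, a homeodomain protein, and Maf (c-Maf), a large basic leucine zipper factor with an activation domain, are required for fiber elongation and crystallin expression. Mafg and Mafk are small Maf factors, which lack an activation domain and act as dimers, often with factors of the CNC and Bach families. Sox1, an HMG-box factor, activates gamma crystallin genes, and Gata3, a zinc finger factor, acts in cell cycle exit. Pitx3 is a homeodomain factor needed to maintain the lens epithelium, and Zeb2 is a zinc finger repressor that binds Smad proteins.

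Of the 8 genes, 5 gave a reading above background on at least 1 array and 3 (Mafk, Sox1 and Gata3) did not on either. Mafg and Prox1 were brighter on the fibers array by 2-fold or more, each with both of its probes, and Maf exceeded background in fibers alone. Pitx3 exceeded background in epithelium alone. As normalized here, Zeb2 had no common direction, because its probes differed in sign. Background was set by a floor, the 95th percentile of 1578 silent probes, which are those for odorant, pheromone and trace amine receptors and for keratin-associated hair proteins. It lay at 44.6 for epithelium and 32.1 for fibers. Where only 1 array was above its floor, the difference is a bound, the bright reading over the floor of the other array. All readings are intensities normalized between the arrays, and each log2 ratio is that of fibers to epithelium.

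**Figure D1:**
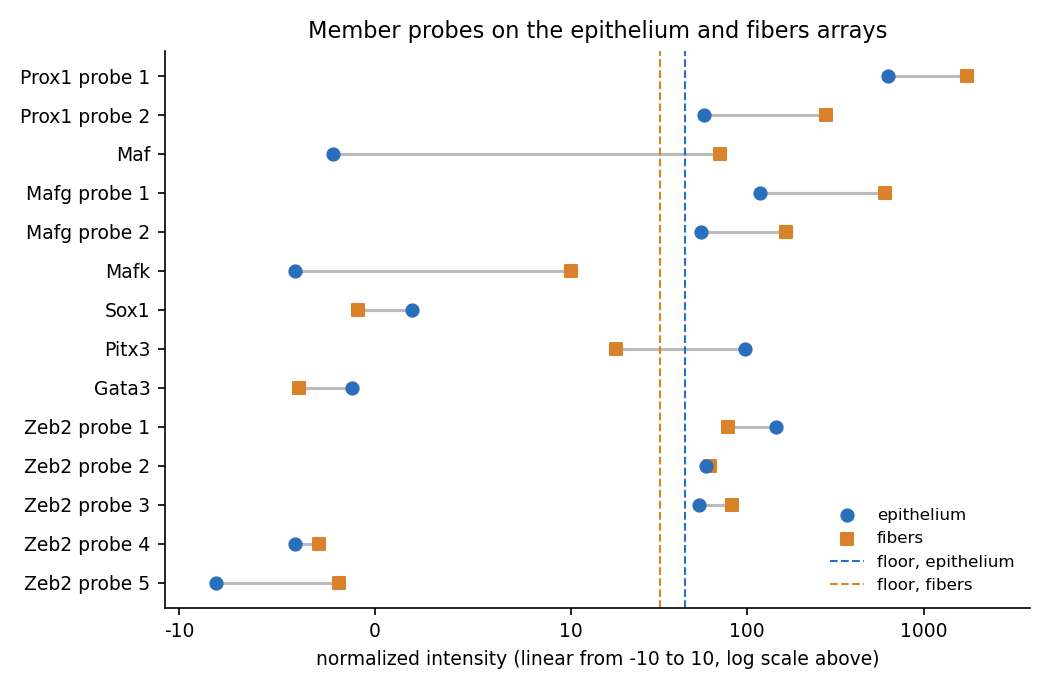
Normalized intensity of each of the 14 probes (rows) on the epithelium array (circles) and the fibers array (squares), on an axis that is linear from -10 to 10 and logarithmic above, with dashed lines at the floor of each array (44.6 and 32.1). Probes of a gene are numbered from the brightest on the epithelium array; both probes of Prox1 and Mafg lie further right on the fibers array, and the single probes of Mafk, Sox1 and Gata3 lie left of the floors on both.

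Among the 5 measured genes, 2 (Mafg and Prox1) reached 2-fold in favour of fibers and 1 (Pitx3) in favour of epithelium. Over all 6451 measured genes, 15.5% were at least 2-fold higher in fibers and 18.5% at least 2-fold higher in epithelium. The excess toward epithelium depended on the floor: with the higher floor on both arrays 1002 genes were past 2-fold in fibers and 899 in epithelium. Counted over all probes, measured or not, 0.38% and 2.03% of the 1578 silent probes were past 2-fold in fibers and in epithelium, against 3.65% and 4.34% of the 34885 named probes. The median log2 ratio of the 5 genes was 0.65, against -0.03 over the 5678 measured genes with a direction. Both medians include bounds, and the 0.65 is the bound of Maf. The choice of scale bears on these values. Of 18 genes listed as housekeeping genes, 16 were measured, 14 of them had positive log2 ratios and 9 were at least 2-fold higher in fibers (median log2 ratio 1.20). Their largest differences were 9.03-fold for Rab7 and at least 8.51-fold for Psmb2, both higher in fibers. Rab7 read 46.6 in epithelium, just above the floor, and other Psmb2 probes had log2 ratios of 1.60 and 0.00. When the fibers array was scaled so that the 10 housekeeping genes above the floor on both arrays had a median log2 ratio of 0, a shift of 0.94, 258 of the 6451 measured genes were at least 2-fold higher in fibers and 2804 (43.5%) at least 2-fold higher in epithelium. Before scaling, the log2 ratios of those 10 housekeeping genes ran from -0.71 (Vcp) to 3.17 (Rab7), so the housekeeping scale is itself uncertain. Under that scale 1 of the 8 genes (Mafg) was past 2-fold in fibers and 2 (Pitx3 and Zeb2) in epithelium.

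The only spread available was that between probes of the same gene. Over 1038 probes of 472 genes with several probes above the floor on both arrays, the SD of the log2 ratio within a gene was 0.74, or 1.67-fold. Of the 14 probes for the 8 genes, 9 passed the floor on 1 array or more and 7 on both.

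Mafg was higher in fibers by both of its probes, and by the brightest probe of each gene its ratio was the highest of the 5 measured genes. Its brighter probe (ILMN_2764883) read 118 in epithelium and 603 in fibers, a log2 ratio of 2.36 (5.12-fold). Its other probe (ILMN_2493338) read 54.7 and 167, a log2 ratio of 1.61 (3.05-fold). Both probes were above the floor on both arrays and higher in fibers, and their log2 ratios lay 0.75 apart. The ratio of the brighter probe exceeded that of 98.2% of the 2986 genes above the floor on both arrays. Scaled to the housekeeping genes, the log2 ratio of Mafg was 1.42, still past 2-fold.

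Prox1 was read in both tissues and was higher in fibers. Its brighter probe (ILMN_2598766) read 632 in epithelium and 1758 in fibers, a log2 ratio of 1.48 (2.78-fold). The second probe (ILMN_2894355), annotated to the same RefSeq transcript, read 56.8 and 280, a log2 ratio of 2.30 (4.93-fold). Prox1 was thus well above the floor in the epithelium as well by its brighter probe and just above it by the dimmer one. The brighter probe's ratio exceeded that of 92.6% of genes above the floor on both arrays. The 2-fold difference did not hold on the housekeeping scale, where the log2 ratio was 0.54.

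**Figure D2:**
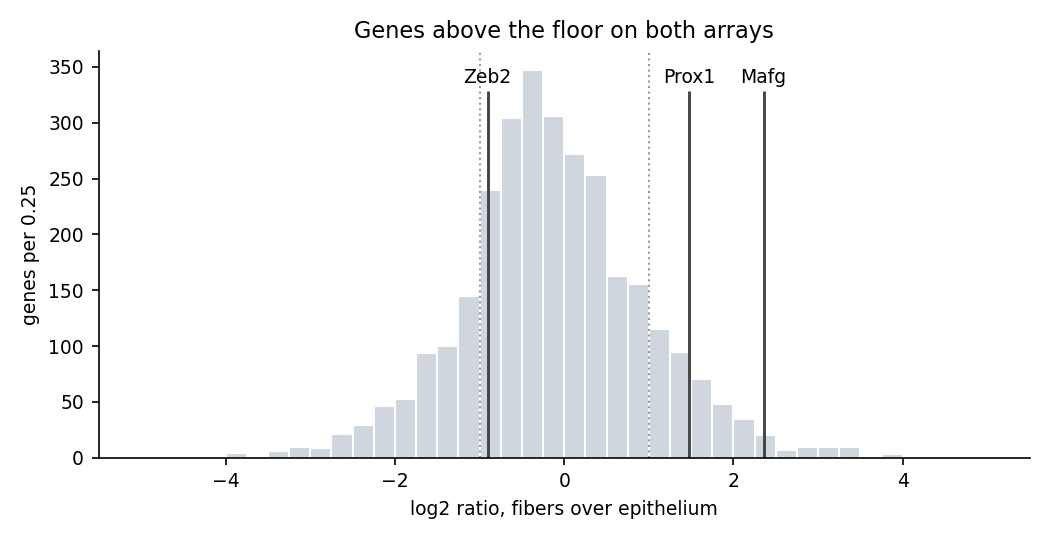
Number of genes (vertical axis) by log2 ratio of fibers over epithelium (horizontal axis, bins of 0.25) for the 2986 genes above the floor on both arrays, with dotted lines at 2-fold. Vertical lines mark Zeb2 at -0.91, Prox1 at 1.48 and Mafg at 2.36, by the brightest probe of each; Mafg lies in the upper tail.

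Maf had 1 probe (ILMN_3100322). It read -2.14 in epithelium, where a negative value means a signal under the subtracted background, and 70.2 in fibers. The fibers reading over the epithelium floor gives a difference of at least 1.57-fold (log2 ratio 0.65). Of the 1578 silent probes, 18 (1.14%) were at least as bright on the fibers array, and 9 had a ratio or bound at least as high. With the 99th percentile as the floor Maf was below it on both arrays, and with no floor its log2 ratio was 1.27, past 2-fold. On the housekeeping scale the bound was below 1 and Maf had no direction.

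The other Maf genes and their dimer partners were mostly dark. Mafk, the second small Maf of the group, read -4.09 in epithelium and 10.1 in fibers, below the floor on both arrays, and no ratio could be given. Of 11 listed Maf family members and partners, 10 had a named probe and 4 were measured. Nfe2l1, a CNC factor that dimerizes with small Mafs, read 76.2 in epithelium and 165 in fibers (2.16-fold higher in the latter). The small Maf gene Maff read 51.8 in epithelium, above its floor there only, and was at least 1.61-fold higher in epithelium. Nfe2l2, the CNC factor of the oxidative stress response, and Keap1, its inhibitor, passed the floor in fibers alone, with bounds under 1 and no direction. Mafa, Nrl, Nfe2, Nfe2l3, Bach1 and Bach2 were below the floor on both arrays. On the housekeeping scale Nfe2l1 had a log2 ratio of 0.18, short of 2-fold, and Maff a bound of -1.62.

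Crystallin genes are classical targets of Maf, Prox1 and Sox1. Of 16 crystallins, 15 were measured and 14 were at least 2-fold higher in fibers (median log2 ratio 2.87), the same direction as Mafg and Prox1, and 12 were on the housekeeping scale. By the brightest probe of each gene, they were led by Crybb1 (18.5-fold), Crygc (13.5-fold) and Cryaa (11.5-fold). Other probes of Crygn had a log2 ratio of 4.43 and a bound of 4.98, above the 4.21 of Crybb1. A second Cryba1 probe was lower, at 1.16. Maf proteins bind a palindromic element whose half-site is TGCTGA. RefSeq promoter sequences (build GRCm38.p6, 250 bases before to 50 bases after the start site) were found for 15 of the 16 crystallins and 7 of the 8 transcription factors. Searched on both strands (TGCTGA or TCAGCA), the half-site was in 10 of 15 crystallin promoters (66.7%), against 19.5% of all 32851 promoters of that length. A match of 6 letters is a description of the sequence and does not show binding.

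The promoters of Crybb1, Cryaa and Cryba4 are printed because these genes had large differences and carry the half-site in different numbers and places. The capitals mark the half-site, and each runs 5′ to 3′ on the strand of the gene. The Crybb1 window lies at chr5:112255570-112255869 (plus strand), the Cryaa window at chr17:31677681-31677980 (plus strand) and the Cryba4 window at chr5:112252469-112252768 (minus strand).
Crybb1: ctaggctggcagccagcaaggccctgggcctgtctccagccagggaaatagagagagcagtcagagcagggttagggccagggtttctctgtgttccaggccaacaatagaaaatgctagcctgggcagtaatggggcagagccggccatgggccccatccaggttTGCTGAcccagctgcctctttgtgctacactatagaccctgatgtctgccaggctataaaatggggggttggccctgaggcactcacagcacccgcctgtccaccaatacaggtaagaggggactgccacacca
Cryaa: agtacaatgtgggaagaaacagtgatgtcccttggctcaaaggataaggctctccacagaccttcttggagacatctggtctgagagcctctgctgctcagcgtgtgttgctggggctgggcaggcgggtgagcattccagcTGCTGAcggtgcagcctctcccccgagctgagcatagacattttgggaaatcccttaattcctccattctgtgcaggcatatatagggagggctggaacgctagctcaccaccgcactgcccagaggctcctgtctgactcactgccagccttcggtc
Cryba4: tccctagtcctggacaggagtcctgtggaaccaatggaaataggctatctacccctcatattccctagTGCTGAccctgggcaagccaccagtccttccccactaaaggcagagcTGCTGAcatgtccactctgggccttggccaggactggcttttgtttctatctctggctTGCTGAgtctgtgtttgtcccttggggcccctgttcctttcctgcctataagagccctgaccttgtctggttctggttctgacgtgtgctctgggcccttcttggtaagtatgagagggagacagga

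The half-site began 84 bases before the start site in Crybb1, which read 183 in epithelium and 3389 in fibers. In Cryaa it began 108 bases before the start, and the readings were 276 and 3183. Cryba4 held 3 half-sites, beginning 182, 135 and 77 bases before the start, and read 1512 and 12383. The 12 half-sites of the 10 promoters lay between 229 and 57 bases before the start. All 10 of these genes were at least 2-fold higher in fibers, with log2 ratios from 1.22 to 4.21 (median 3.09). Among the 5 crystallins without the half-site in this window, 4 were measured (Crygb, Crygd, Cryge and Crygf) and were also at least 2-fold higher in fibers, from 2.16 to 3.23 (median 2.48). The ranges overlap, and Crygd, Cryge and Crygf are close copies of one another, so they are not independent. The fifth, Crybb2, was below the floor on both arrays.

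**Figure D3:**
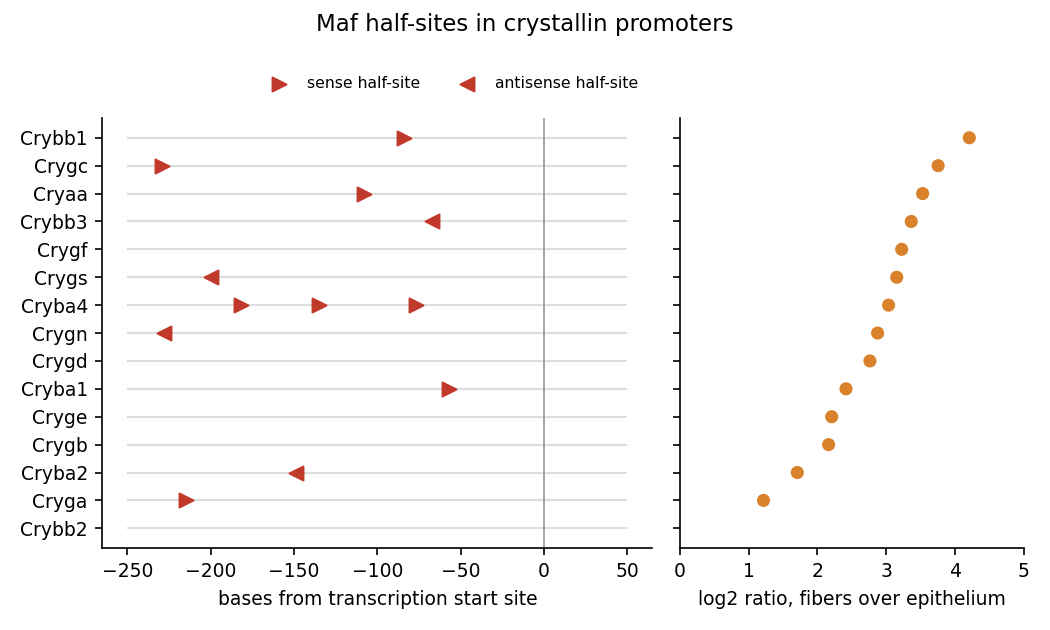
Left, position of each Maf half-site (triangles, pointing right on the strand of the gene and left on the other strand) in bases from the transcription start site for 15 crystallin promoters; right, log2 ratio of fibers over epithelium of the same genes, which are ordered by it, with no value for Crybb2. The half-site is in 10 of the 15, including the 4 with the highest ratios by the brightest probe, and all 12 matches lie before the start site.

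The longer element of small Maf and CNC dimers, TGACNNNGC, was in 8 of the 15 crystallin promoters (53.3%) and in 12.4% of all promoters, on either strand. Of its 11 matches in the crystallins, 4 overlapped a Maf half-site. The Sox core AACAAT was in 3 of the 15 (20.0%) and in 10.7% of all promoters. Among the 11 promoters of the transcription factors themselves, 2 held the Maf half-site (18.2%), those of Mafk and Gata3, whose transcripts were below the floor.

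Genes listed as targets of the antioxidant element, or as altered in lenses of Mafg and Mafk mutant mice, were divided in direction. Of 15 listed, 7 were measured, including Aldh3a1, Pcbp4 and Hspb1 of the mutant lenses. Among the 7, 1 reached 2-fold in favour of fibers and 2 in favour of epithelium (median log2 ratio -0.21). The counts were 0 and 3 on the housekeeping scale, where Aldh3a1 was among the 3. Fth1, the ferritin heavy chain, read 428 in epithelium and 1158 in fibers (2.71-fold), with a second probe at 0.88 on the log2 scale. In epithelium Txnrd1, thioredoxin reductase, stood at least 3.29-fold higher, and Slc7a11, a cystine transporter, at least 2.14-fold. Hmox1, heme oxygenase, was below 0 on both arrays. Aldh3a1, Pcbp4, Hspb1 and Trex1 are known for altered expression in lenses of Mafg and Mafk mutant mice and were chosen after their values were seen. Aldh3a1 had a log2 ratio of -0.81 and Pcbp4 of 0.39, which was -0.54 on the housekeeping scale, Hspb1 had no direction, and Trex1 was below the floor on both arrays.

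**Figure D4:**
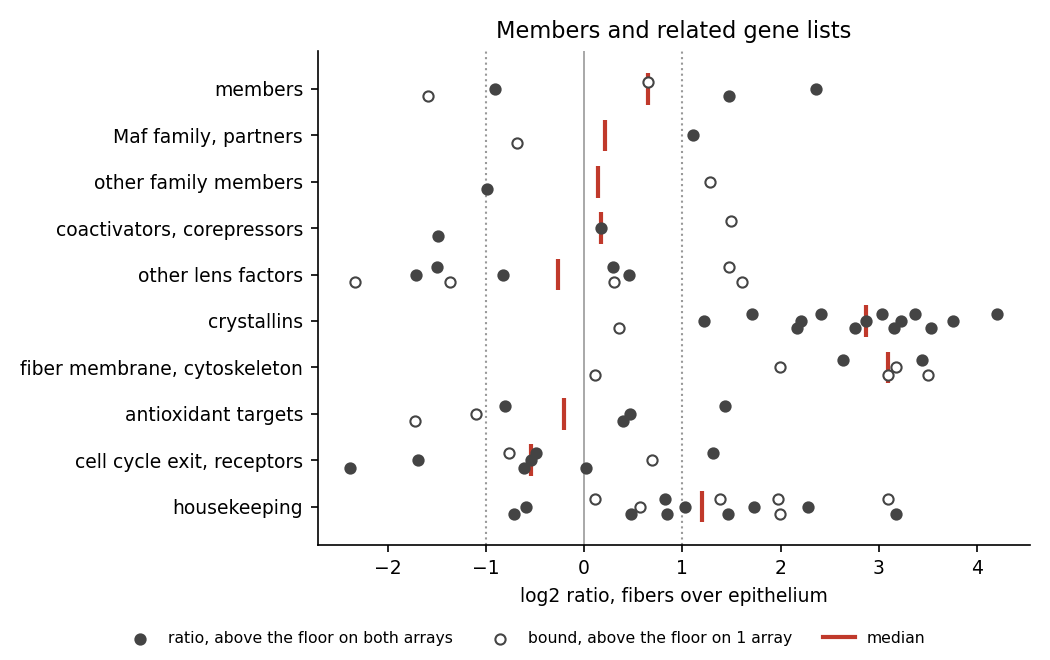
Log2 ratio of fibers over epithelium (horizontal axis) of each measured gene with a direction in the transcription factor group (members) and in 9 related lists (rows); filled points are ratios, open points are bounds, red lines are medians and dotted lines mark 2-fold. Crystallins and the fiber membrane and cytoskeleton list lie to the right (medians 2.87 and 3.09). That list also holds Dnase2b, Grifin, Caprin2 and Tdrd7, and the antioxidant list also holds Aldh3a1 and Pcbp4. Housekeeping genes are shifted the same way (1.20), and the 5 measured members spread from -1.59 to 2.36.

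Sox1 read 1.90 in epithelium and -0.88 in fibers, below the floor on both arrays, with 1 probe (ILMN_2739469). Its relatives Sox2 (26.9 and 9.08) and Sox3 (0.90 and 6.08) were below the floor as well. Gata3 read -1.15 in epithelium and -3.88 in fibers (ILMN_1248843), and Gata1, Gata2, Gata4, Gata5 and Gata6 were also below the floor on both arrays. These readings show that the probes gave no signal above silent genes, not that the transcripts were absent. The GATA cofactor Zfpm2 read 717 in epithelium and 362 in fibers, a log2 ratio of -0.99, just short of 2-fold, and -1.92 on the housekeeping scale.

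Cell cycle exit is the step in which Gata3 and Prox1 are known to act, through the inhibitors Cdkn1c and Cdkn1b. Of 13 listed cell cycle genes, receptors and adhesion genes, 9 were measured, 1 reached 2-fold in favour of fibers and 2 in favour of epithelium (median log2 ratio -0.54), against 0 and 6 on the housekeeping scale. Cdkn1c, which encodes p57, went from 391.9 in epithelium to 972 in fibers (2.48-fold, 0.38 on the log2 scale after housekeeping scaling), and Ccnd1, cyclin D1, read 749 and 232 (3.22-fold higher in epithelium). Cdkn1b, the inhibitor p27, had a log2 ratio of -0.54 and did not share the direction of Prox1. Among the FGF receptors, known to depend on Prox1 in fibers, Fgfr1 passed the floor in fibers alone, at least 1.61-fold higher there, although a second probe had no direction. Fgfr2 had a log2 ratio of -0.61, with other probes at 0.07 and 0.02, and Fgfr3 was below the floor. Cdkn1b and the receptors were chosen after their values were seen.

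Pitx3 was the member on the epithelium side. Its single probe (ILMN_2679243) read 96.9 in epithelium and 18.0 in fibers, which was below the floor, and the bound was at least 3.02-fold (log2 ratio -1.59). Of the silent probes, 22 (1.39%) were at least as bright on the epithelium array and 13 had a ratio or bound at least as far toward epithelium. With the higher floor applied to both arrays the bound was -1.12 on the log2 scale, and with the 99th percentile as the floor Pitx3 was below it on both arrays. Foxe3, the epithelial forkhead factor that lies downstream of Pitx3 and Zeb2, read -2.14 and 0.10, below the floor on both arrays, although it is a defining gene of lens epithelium. It was chosen after its values were seen, as were Pax6 and Tfap2a. Other epithelial factors were on the side of Pitx3: Pax6 read 195 and 69.1, and Tfap2a was at least 2.57-fold higher in epithelium.

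Zeb2 had 5 probes. The brightest (ILMN_1227793) read 146 in epithelium and 77.8 in fibers, a log2 ratio of -0.91. Another (ILMN_2419650) read 58.6 and 61.5, a log2 ratio of 0.07, and the third (ILMN_1232121) read 53.6 and 81.5, a log2 ratio of 0.60. These 3 probes are annotated to the same RefSeq transcript and were above the floor on both arrays. They spanned 1.51 on the log2 scale and, as normalized here, gave no common direction. The remaining probes, annotated to cDNA clones, were below 0 on both arrays. Averaged over all 5 probes the log2 ratio was -0.19. On the housekeeping scale the brightest probe had a log2 ratio of -1.84. That scale lowers each ratio by 0.94, more than the 0.60 of the third probe, so all 3 then lie toward epithelium. Cdh1, E-cadherin, a gene that Zeb2 is known to repress, read 854 in epithelium and 164 in fibers (5.22-fold higher in epithelium). The related repressor gene Zeb1 also had probes of opposite direction, at least 2.43-fold higher in fibers by the brighter one and a log2 bound of -1.22 by the other.

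Of 16 other lens transcription factors, 13 were measured, 2 were at least 2-fold higher in fibers and 4 in epithelium, with a median log2 ratio of -0.27 over those with a direction. On the housekeeping scale the counts were 0 and 5. The largest differences toward epithelium were at least 5.04-fold for Sox11 and 3.29-fold for Mab21l1. A second Sox11 probe read 22.0 in epithelium and 43.3 in fibers, above the floor in fibers alone, with no direction. Hsf4, a heat shock factor that regulates crystallins, was at least 3.05-fold higher in fibers. Fiber membrane and cytoskeleton genes were on the side of Prox1 and Mafg, with 6 of 7 measured at least 2-fold higher in fibers on either scale. Tdrd7, an RNA granule protein, was at least 11.3-fold higher, Grifin, a lens galectin-related protein, 10.8-fold and the RNA-binding protein gene Caprin2 at least 9.04-fold.

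By intensity on both arrays, the transcripts nearest to Prox1 among genes above both floors were Nras (668 in epithelium and 1635 in fibers) and Celf1 (568 and 2127), at distances of 0.13 and 0.31 on the log2 scale. Nearest to Mafg were Cox6a1 and Dkk3 (both at 0.14), and nearest to Zeb2, by its brightest probe, were Smad2 (0.04) and Trmt6 (0.06). With 2 arrays this likeness rests on 2 values per gene.

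Genes of the fibers were also read in the epithelium sample. Over crystallins, Mip and Grifin, 16 genes above the floor on both arrays, the epithelium reading was a median of 12.9% of the fibers reading. It ran from 5.41% for Crybb1 to 43.1% for Cryga. Most genes listed as markers of cell types outside the lens lay under the floor. Of the listed genes, 2 were at least 2-fold higher in epithelium, the direction of Pitx3. Tfap2b, which marks periocular mesenchyme, read 209 and 36.2, the latter just above the floor. Its other measured probes had log2 bounds of -1.66 and -1.65, and 1 (24.9 and 36.2) had no direction. Tfap2b was the only measured marker of 7 in its list, whose summed readings were 245 in epithelium and 65.9 in fibers. Foxc2 and Col1a1 were at or below 0 in epithelium. Sfrp2, listed for retina, read 1256 and 139.7, as the only measured gene of 5, with summed readings of 1298 and 159.9. Rax, Six6, Lhx2 and Hes5 were below the floor on both arrays, with Six6 below 0 on both. Sfrp2 alone does not identify retina, and the presence of retinal tissue was not tested. Of the neuron markers none of 5 was above the floor. The endothelium list held only Tek (at least 1.87-fold higher in fibers) of 6, the erythroid list Hba-a1 (at least 1.72-fold higher in fibers) and Hbb-y (log2 ratio 0.03, and -0.91 on the housekeeping scale) of 5, and the surface ectoderm list Krt5 (0.42, and -0.52 on that scale) of 5. The pigment cell list held Mitf (0.27, and -0.67 on that scale) and Pmel (a bound of -0.80) of 5, and the macrophage list Aif1 (-0.68) and Csf1r, with no direction, of 5. The part of these markers in the readings of Pitx3, Zeb2 or the other factors was not tested.

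**Figure D5:**
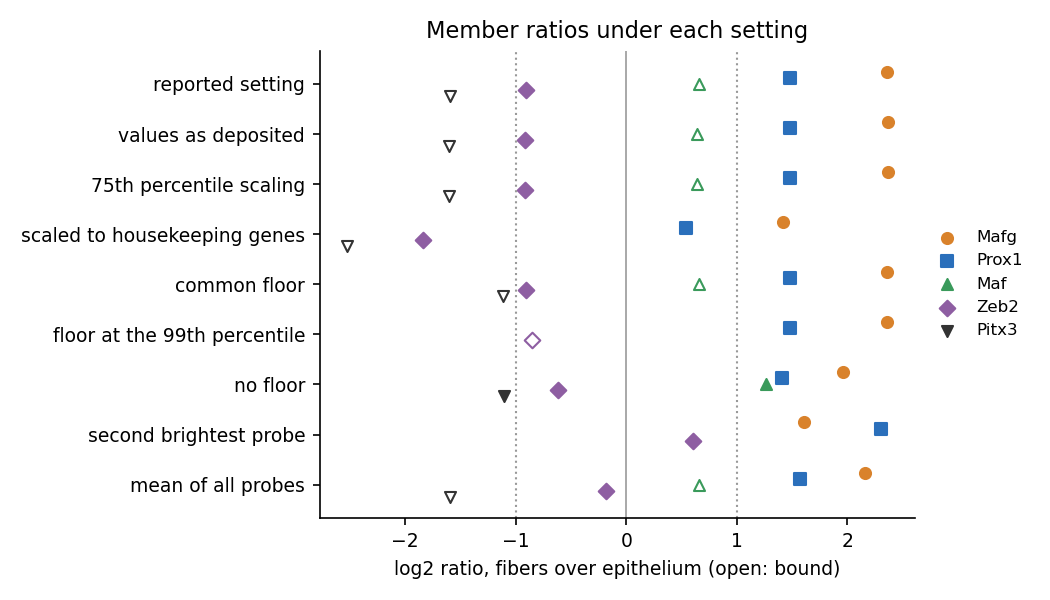
Log2 ratio of fibers over epithelium (horizontal axis) of the 5 measured transcription factors under the reported setting and 8 alternatives (rows); open symbols are bounds, dotted lines mark 2-fold, and a missing symbol means that the gene was not measured or had no direction. Mafg stayed past 2-fold in fibers in every row shown, Prox1 in all but the housekeeping scale (0.54), and Zeb2 lay at 0.60 with its second brightest probe.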

How the data were processed

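Total RNA of 1 lens epithelium and 1 lens fibers sample was biotin-labelled and run on Illumina arrays, per the labels' protocols. The authors deposited linear intensities as whole numbers. Values of 0 or less made up 38.0% (epithelium) and 38.7% (fibers) of them, which shows a background subtraction; its method and any scaling are not stated in the sources used here. The intensities were quantile normalized on the linear scale, which hides differences in total RNA. Probes were named through the platform annotation: 34885 carried 1 symbol, 18 carried several and 10378 carried none. Each gene is shown by the probe with the highest mean of both arrays. Genes above the floor on 1 array have a bound, and a bound under 1 gives no direction; a bound counts at its value. No test was run, since each group has 1 array; that number limits the precision.

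Named genes are the 8 transcription factors with all probes, all measured members of the Maf family, other family and cofactor lists, up to 3 genes of each other list with the largest absolute log2 ratio, and the 2 transcripts nearest to each gene above the floor on both arrays. Genes outside this rule, such as Hmox1, Cryba4, the crystallins without a half-site and the unmeasured family members and cofactors, were chosen after their values were seen. The transcription factors and lists were chosen with earlier results of these data known. The 9 alternatives cover scaling, floor, probe choice and threshold. Calculations used Python 3.11.15, pandas 2.3.3 and numpy 2.4.6 and were tested on simulated data.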

Additional observations from a re-analysis of the deposited data

How the results depend on the processing

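The counts of 2 genes past 2-fold in fibers and 1 in epithelium were recomputed under 9 alternatives. Scaled to housekeeping genes they were 1 and 2. The count for fibers was 3, with Maf added, with no floor and with a 1.5-fold threshold. The count for epithelium was 0 with the floor at the 99th percentile and with the second brightest probe, which Pitx3 lacks, and 2 with a 1.5-fold threshold. Mafg, Prox1 and Pitx3 kept their sign wherever they had a value, which a bound does by construction for Pitx3, and Zeb2 turned to 0.60 with its second brightest probe. The values as deposited and scaling to the 75th percentile gave the same results, because that percentile was already equal. Over all genes, the counts of 1002 in fibers and 1196 in epithelium became 258 and 2804 when scaled to housekeeping genes, 345 and 467 with the 99th percentile floor, 219 and 250 with the second brightest probe, 660 and 751 with the mean of all probes, and 1588 and 2006 at 1.5-fold. The excess toward epithelium turned with the common floor (1002 and 899) and with no floor (979 and 955). The readings of Mafk, Sox1 and Gata3 were too close to background to compare. No paired analysis was possible because each group has 1 array, and for the same reason no array could be left out.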

Other observations

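Transcriptional cofactors that work with these factors were read as well. Of 10 listed, 8 had a named probe and 4 were measured, with 1 at least 2-fold higher in fibers and 1 in epithelium, against 0 and 1 on the housekeeping scale. Ep300, an acetyltransferase that acts as a coactivator, was at least 2.82-fold higher in fibers, where it read 126 (a bound of 0.56 on the log2 scale after housekeeping scaling). Hdac2, a histone deacetylase, read 355 in epithelium and 127 in fibers (2.80-fold higher in epithelium), while Hdac3, a related deacetylase, had a log2 ratio of 0.17, which was -0.77 on the housekeeping scale. Tle1, a corepressor, had no direction. Crebbp, the partner acetyltransferase of Ep300, and Ctbp1 and Ctbp2, corepressors that bind Zeb proteins, were below the floor on both arrays.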
